A study of Mus musculus with 6 samples.

Results

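The Notch genes described here are 4 receptors (Notch1, Notch2, Notch3 and Notch4), 4 ligands (Dll1, Dll4, Jag1 and Jag2) and 2 transcriptional targets (Hes1 and Heyl), 10 of the 49671 genes counted in embryonic mouse pancreas. They were taken by symbol from the gene count table, all 10 were found, and all 10 passed the filter on low counts that left 17519 genes for testing. Total RNA was sequenced from pancreata of C57BL/6J embryos at 14.5 dpc, as 3 control libraries and 3 libraries treated with AMI-5 at 10 µM, and the labels name no mutant allele or transgene in either group. AMI-5 is a small molecule that blocks protein methyltransferases, including those that act on arginine. The study asked how the compound affects differentiation of the pancreas.

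Levels are given as CPM, read counts scaled by TMM to libraries of like size. Across the 10 genes, 8 were lower with AMI-5, none was higher, and 2 (Notch4 and Jag2) did not pass the test. The median log2 fold change was -0.44, against -0.001 over all genes tested. Of all genes tested, 26.6% were called lower and 27.5% higher (edgeR quasi-likelihood test with Benjamini-Hochberg adjustment, threshold 0.05), so lower calls were common in this comparison. In 8 of the 10 genes every AMI-5 library lay below every control library, which was the case for 30.6% of all genes tested. With the genome-wide trends of fold change on GC content and length removed, 4 of the 10 were called lower (Dll1, Jag1, Hes1 and Heyl) and 1 higher (Jag2), against 19.5% of all genes called lower and 25.1% higher in that fit.

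Gene counts summed to 12445425 to 13321899 per control library and to 22894312 to 24805188 per AMI-5 library. The labels give an older version of the strand-specific library kit for samples marked A. Control titles carry that mark and AMI-5 titles carry Am, so kit version and treatment cannot be told apart if only the control samples are meant. The labels do not say whether replicates were separate cultures or animals, so the p-values cover only the spread seen among these libraries, which may be technical. The tissue label was met by its markers: acinar markers such as Ctrb1 and Cpa1, the duct marker Spp1 and the endocrine progenitor marker Nkx2-2 were counted in every library. In whole tissue, fewer cells of a type and less RNA per cell cannot be told apart.

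Notch signalling passes between touching cells. A Delta-like or Jagged ligand on one cell binds a Notch receptor on its neighbour, and cleavage by an ADAM protease and by gamma-secretase frees the receptor's intracellular part, which enters the nucleus and, with the DNA-binding protein RBPJ and Mastermind coactivators, switches on Hes and Hey repressors. In the embryonic pancreas, Notch activity holds progenitors undifferentiated, and cells that start the Neurog3 endocrine programme raise Dll1 and inhibit their neighbours through Hes1. Notch4 and Dll4 are known from endothelium, and Notch3 and Heyl from the smooth muscle and pericytes around vessels.

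The promoter windows of Dll1 and Jag2, the ligands with the largest and smallest difference between the groups in the reported fit, are shown first. With the GC and length trends removed, Jag2 was called higher. Their windows differ in E-boxes, the CANNTG element read by basic helix-loop-helix factors such as Neurog3. A link between E-boxes and the levels was not tested. Each window is the 250 bases before a RefSeq start on GRCm38.p6, 5′ to 3′ on the gene's strand, with E-boxes in capitals. Dll1 has 2 such starts.
Dll1, chr17:15376933-15377182, minus strand: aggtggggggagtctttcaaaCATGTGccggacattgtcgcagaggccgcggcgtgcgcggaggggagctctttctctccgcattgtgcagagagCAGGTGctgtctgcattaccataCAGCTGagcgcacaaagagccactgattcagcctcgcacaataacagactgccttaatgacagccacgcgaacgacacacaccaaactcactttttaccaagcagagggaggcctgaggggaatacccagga
Dll1, chr17:15375824-15376073, minus strand: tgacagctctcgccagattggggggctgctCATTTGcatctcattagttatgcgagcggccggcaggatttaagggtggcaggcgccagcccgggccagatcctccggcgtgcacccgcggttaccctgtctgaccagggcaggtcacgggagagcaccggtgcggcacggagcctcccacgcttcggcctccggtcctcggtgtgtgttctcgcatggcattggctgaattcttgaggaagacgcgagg
Jag2, chr12:112929496-112929745, minus strand: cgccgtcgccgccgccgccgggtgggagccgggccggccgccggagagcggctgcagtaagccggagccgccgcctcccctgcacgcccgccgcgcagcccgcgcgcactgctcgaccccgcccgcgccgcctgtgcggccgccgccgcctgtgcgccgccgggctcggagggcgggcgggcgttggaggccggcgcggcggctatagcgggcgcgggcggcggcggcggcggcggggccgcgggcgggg
The first Dll1 window held 3 E-boxes, at 229, 155 and 132 bases before the start, and its GC content was 56%. At least 3 E-boxes were found in 12.2% of all 32851 windows of this length. The second Dll1 window held 1 E-box, 220 bases before the start, and its GC content was 64%. The Jag2 window held none, and its GC content was 87.2% with 54 CpG dinucleotides. E-boxes were also found once each in the windows of Notch4 and Jag1, and 66.2% of all windows held at least 1.

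Promoter windows were matched for 8 of the 10 genes and not for Hes1 and Heyl. The RBPJ core TGGGAA, searched on both strands, was in 0 of the 9 windows and in 21.6% of all windows. The N-box CACNAG, an element bound by Hes repressors, was in the windows of Notch1, Notch2, Notch3 and Dll4 and in 36.7% of all windows. A match is a description of letters in the window and not a binding site.

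**Figure D1:**
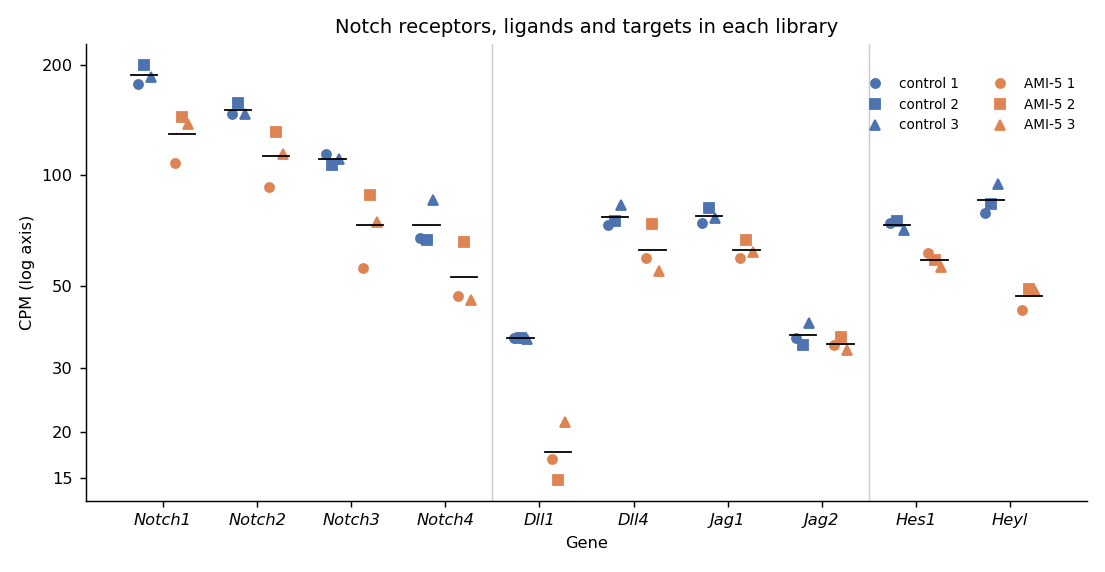
Level of each of the 10 Notch genes in CPM (TMM-scaled counts) on a log axis, 1 point per library, with horizontal bars at the group means of 3 control and 3 AMI-5 libraries. All AMI-5 points lie below all control points for 8 genes, and the groups overlap for Dll4 and Jag2.

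Among the receptors, Notch1, Notch2 and Notch3 were lower with AMI-5 and Notch4 did not pass the test, with mean levels at 66.2% to 75.1% of control. The receptor genes are long transcripts, of 8044 to 14232 bases of merged exons. Notch1 (ENSMUSG00000026923, chr2:26457903-26516663 of mm10), which holds progenitor cells undifferentiated and guides arterial endothelium, was at 177.0, 200.045 and 185.1 CPM in control replicates 1 to 3 and at 108.2, 144.0 and 137.9 CPM in AMI-5 replicates 1 to 3. Its lowest control library stood above its highest AMI-5 library, and AMI-5 replicate 1 was the lowest of all. Of the 50-base words of Notch1, 9.11% are shared with other genes. Its mean went from 187 ± 11.7 to 130.01 ± 19.1 CPM (SD, n = 3 libraries each), a log2 fold change of -0.53 ± 0.10 (SE, edgeR quasi-likelihood adjusted p = 0.00199).

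Notch2 (ENSMUSG00000027878, chr3:98013527-98150361) is expressed in pancreatic mesenchyme and epithelium. It was at 147.1, 157.0 and 147.1 CPM in control and at 92.9, 131.5 and 114.2 CPM with AMI-5, so that the AMI-5 libraries were spread more widely than the controls. The log2 fold change was -0.41 ± 0.11 (SE, edgeR adjusted p = 0.0143). Notch3 (ENSMUSG00000038146, chr17:32120820-32166880), the receptor of vascular smooth muscle and pericytes, was at 114.2, 106.5 and 111.1 CPM in control and at 56.1, 88.7 and 74.85 CPM with AMI-5. AMI-5 replicate 1 was again lowest. The log2 fold change was -0.59 ± 0.16 (SE, edgeR adjusted p = 0.0208), and the call ended without control replicate 1 (adjusted p = 0.0706), without control replicate 3 (0.0843) and without AMI-5 replicate 3 (0.0575).

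Notch4 (ENSMUSG00000015468, chr17:34564268-34588503), the endothelial receptor, was at 67.4, 66.8 and 85.5 CPM in control and at 46.9, 66.0 and 45.8 CPM with AMI-5. Control replicate 3 and AMI-5 replicate 2 were the high libraries of their groups, and the groups were separated by less than 1 CPM. The log2 fold change was -0.47 ± 0.18 (SE, edgeR adjusted p = 0.075). Without AMI-5 replicate 2 it was -0.64 and passed the test (edgeR adjusted p = 0.000598).

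Notch1, Notch2 and Notch3 were lowest in AMI-5 replicate 1, a library in which long genes were also slightly lower. Over 2005 protein-coding genes of at least 8 kb with a mean of at least 5 CPM, the median log2 deviation from the group mean was -0.083 in AMI-5 replicate 1, 0.051 in AMI-5 replicate 2 and 0.032 in AMI-5 replicate 3, against -0.022 to 0.025 in the controls. In AMI-5 replicate 1, Notch1, Notch2 and Notch3 stood at 108.2, 92.9 and 56.1 CPM, against AMI-5 means of 130.01, 112.9 and 73.2 CPM. On the log2 scale each lay further below its mean than the long-gene median of -0.083. Notch4, also a long gene at 8061 bases, was lowest in AMI-5 replicate 3 instead (45.8 CPM, against 46.9 CPM in AMI-5 replicate 1). The part of gene length in the receptor values was not tested. Without AMI-5 replicate 1, Notch1, Notch2 and Notch3 were still called lower, and 7 of the 10 genes were called lower in all. With the GC and length trends removed, no receptor was called: the log2 fold changes were -0.21 for Notch1 (edgeR adjusted p = 0.129), -0.20 for Notch2 (0.184), -0.20 for Notch3 (0.364) and -0.011 for Notch4 (0.967).

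Of the ligands, Dll1 was lower, with the largest fold change of the 10 genes. Jag1 and Dll4 were lower with smaller fold changes, and Jag2 did not pass the test. Dll1 (ENSMUSG00000014773, chr17:15367354-15376872), the Delta-like ligand of endocrine-committed progenitors, was at 36.2, 36.2 and 35.9 CPM in control and at 16.96, 14.8 and 21.3 CPM with AMI-5. The 3 control libraries lay within 1 CPM of each other, and every AMI-5 library was well below them. The mean went from 36.1 ± 0.207 to 17.7 ± 3.31 CPM, or 49.1% of control, a log2 fold change of -1.03 ± 0.12 (SE, edgeR quasi-likelihood adjusted p = 2.23e-05). With the GC and length trends removed it was -0.81 (edgeR adjusted p = 0.000176). Of the 50-base words of Dll1, 16.1% are shared with other genes, which leaves its value uncertain to that extent. Dll1 is therefore not in the fit of unique-sequence genes only. Dll1 overlaps the antisense gene A930024N18Rik over 24.9% of its exon bases, and that gene had 14 to 31 reads per library, against 333 to 505 for Dll1.

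Dll4 (ENSMUSG00000027314, chr2:119325784-119335962), the Delta-like ligand of arterial and sprouting endothelium, was at 73.3, 75.1 and 83.1 CPM in control and at 59.6, 74.0 and 55.0 CPM with AMI-5. AMI-5 replicate 2 lay inside the control range. The log2 fold change was -0.30 ± 0.11 (SE, edgeR adjusted p = 0.0402), and the call ended when any library except AMI-5 replicate 2 was left out (adjusted p = 0.0602, 0.0721 and 0.133 without control replicates 1, 2 and 3, and 0.145 and 0.105 without AMI-5 replicates 1 and 3). Dll4 overlaps the antisense gene Gm14207 over 5.56% of its exon bases.

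Jag1 (ENSMUSG00000027276, chr2:137081456-137116644), a Jagged ligand of pancreatic epithelium, mesenchyme and vessels, was at 74.3, 81.7 and 76.6 CPM in control and at 59.6, 66.6 and 61.8 CPM with AMI-5. The groups did not overlap, and their means were 77.5 ± 3.77 and 62.7 ± 3.61 CPM. The log2 fold change was -0.31 ± 0.064 (SE, edgeR adjusted p = 0.00157). Jag2 (ENSMUSG00000002799, chr12:112908590-112929495), the other Jagged ligand, was at 36.1, 34.5 and 39.6 CPM in control and at 34.5, 36.3 and 33.6 CPM with AMI-5. Its groups overlapped, with a log2 fold change of -0.079 ± 0.074 (SE, edgeR adjusted p = 0.388). With the GC and length trends removed the direction of Jag2 turned and it was called higher, at 0.39 (edgeR adjusted p = 0.00107). Jag2 had the highest GC content of the 10 genes in its longest transcript, at 61.9%.

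Both targets were lower, Heyl to 54.7% and Hes1 to 80.3% of its control mean, and the difference between them was not tested. Hes1 (ENSMUSG00000022528, chr16:30064384-30067796), the repressor that keeps progenitors from the endocrine fate, was at 74.1, 75.1 and 71.2 CPM in control and at 61.7, 58.9 and 56.4 CPM with AMI-5. The means were 73.5 ± 1.99 and 59.0 ± 2.66 CPM, a log2 fold change of -0.32 ± 0.059 (SE, edgeR adjusted p = 0.000694). Its groups did not overlap. Heyl (ENSMUSG00000032744, chr4:123233556-123249875), a Hes-related repressor of vascular smooth muscle, was at 78.8, 83.4 and 94.96 CPM in control and at 43.0, 49.05 and 48.6 CPM with AMI-5. The highest AMI-5 library was well below the lowest control. The log2 fold change was -0.87 ± 0.079 (SE, edgeR quasi-likelihood adjusted p = 2.44e-06). With the trends removed, both remained called, at -0.25 for Hes1 (edgeR adjusted p = 0.00492) and -0.64 for Heyl (4.49e-05).

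**Figure D2:**
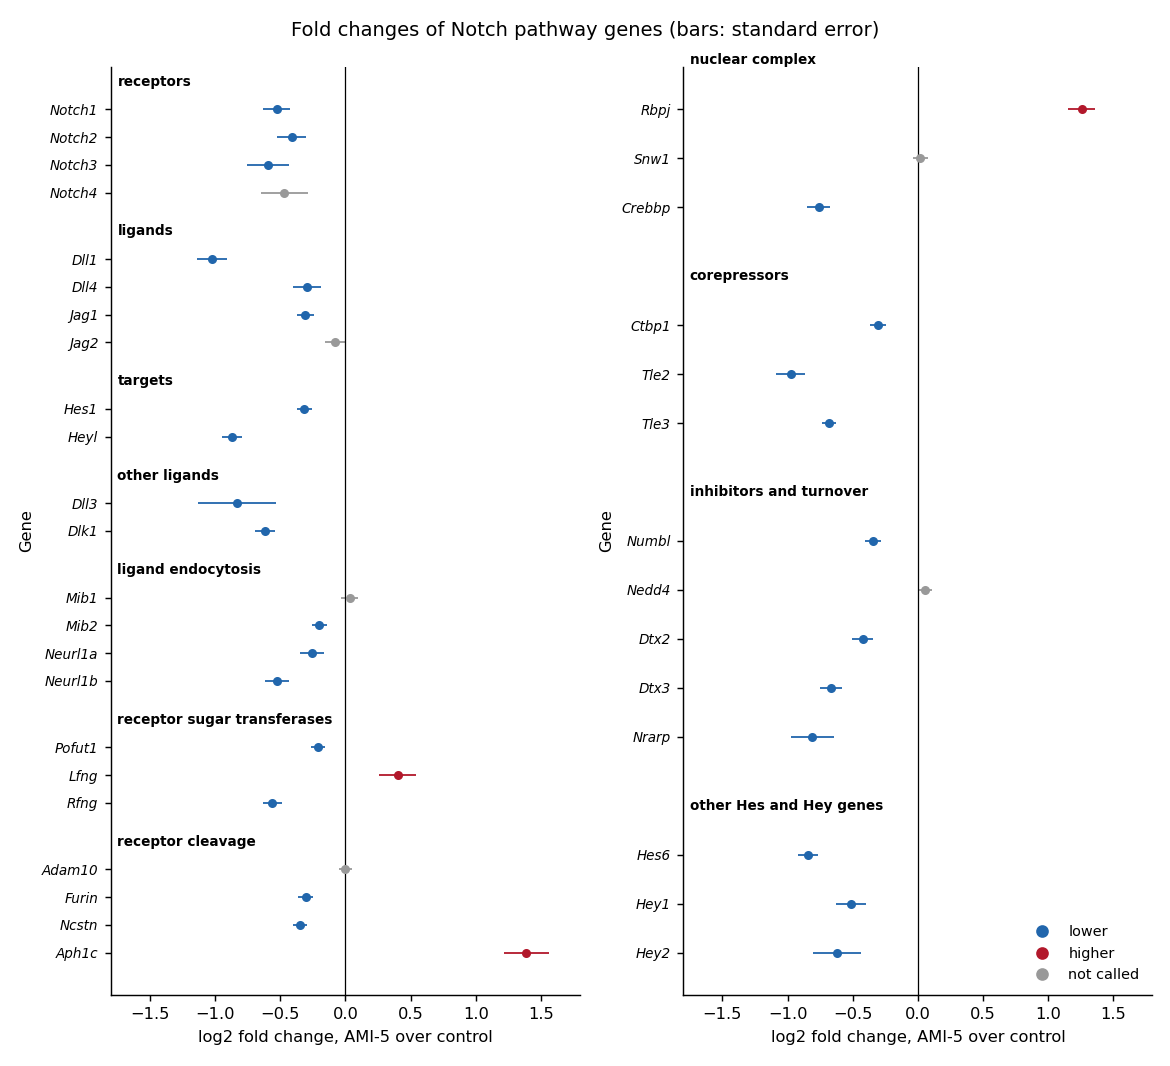
Log2 fold change of AMI-5 over control with its standard error (edgeR, 3 libraries per group) for the receptors, ligands and targets and for other Notch pathway genes described in the text. Blue genes were called lower, red genes higher and grey genes were not called at an adjusted p of 0.05. Dll1 and Heyl lie farthest below 0 among the 10 genes.

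Levels were compared between genes per length, as CPM per kilobase of merged exons. In control, Notch2 (13.95 CPM per kb), Notch3 (13.75) and Notch1 (13.2) stood at like levels whose library ranges overlapped, and Notch4 (9.08) lay below them. With AMI-5 the order was Notch2 (10.5), Notch1 (9.14), Notch3 (9.10) and Notch4 (6.56), and each neighbour overlapped the next. Among the ligands in control, Dll4 was highest (20.03 CPM per kb), then Jag1 (13.3), then Jag2 (9.07) and Dll1 (8.55), the last pair overlapping. With AMI-5 the order of ligands was the same, at 16.3, 10.8, 8.58 and 4.20 CPM per kb, and Jag2 and Dll1 no longer overlapped. Hes1 was above Heyl in both groups, at 36.1 against 16.8 CPM per kb in control and at 29.0 against 9.17 CPM per kb with AMI-5.

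The make-up of the ligand pool differed between the groups, and that of the receptor pool differed less. Dll1 made up 17.4%, 16.96% and 16.04% of the summed ligand level per length in control and 10.5%, 8.16% and 13.2% with AMI-5. Jag2 made up 18.1%, 16.8% and 18.5% in control and 22.3%, 20.8% and 21.7% with AMI-5. Neither pair of groups overlapped, and an exact two-sided permutation test of 3 against 3 libraries cannot give a p below 0.1. The level of Jag2 itself did not rise, at 9.07 CPM per kb in control and 8.58 with AMI-5. Shares were not corrected for the trend on GC and length, which came to -0.47 at Jag2, -0.24 at Dll4, -0.21 at Dll1 and -0.053 at Jag1. The shares of Dll4 (39.3% ± 1.23 and 40.8% ± 3.60, SD) and of Jag1 (26.1% ± 1.46 and 27.0% ± 0.647, SD) overlapped between the groups.

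Of the receptor pool, Notch2 made up 27.9% ± 1.17 (SD) in control and 29.7% ± 0.329 with AMI-5, without overlap, and the shares of the other 3 receptors overlapped. The summed receptor level was 49.95 ± 1.22 CPM per kb in control and 35.3 ± 6.26 CPM per kb with AMI-5, lowest in AMI-5 replicate 1 (29.0). The summed ligand level was 50.96 ± 1.88 CPM per kb in control and 39.9 ± 2.82 CPM per kb with AMI-5. The ratio of the ligand sum to the receptor sum was 1.01, 1.01 and 1.04 in control and 1.32, 1.04 and 1.08 with AMI-5, so the groups met at 1.04 and AMI-5 replicate 1 stood apart.

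**Figure D3:**
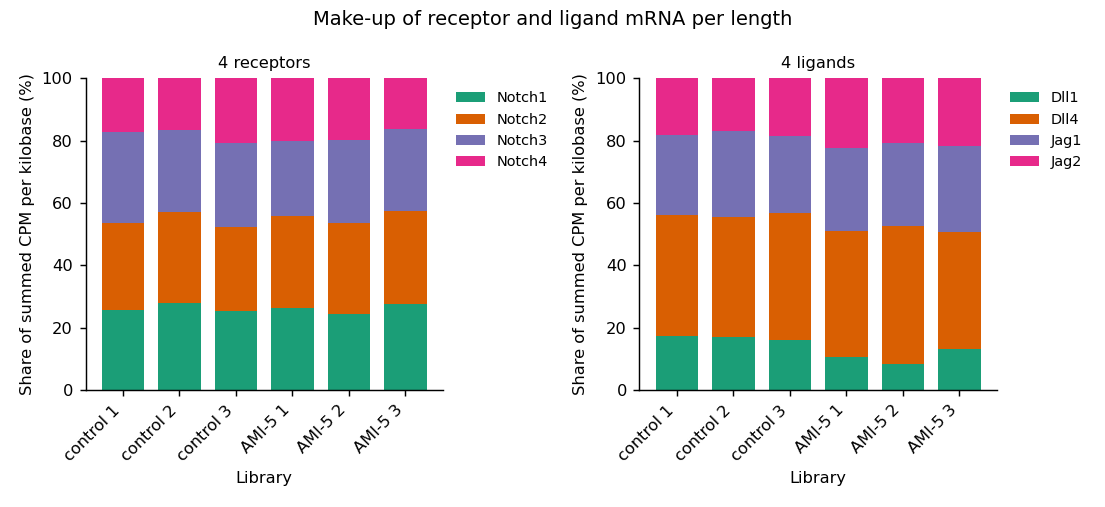
Share of each receptor in the summed receptor level and of each ligand in the summed ligand level, in percent of CPM per kilobase, for each of the 6 libraries. Dll1 takes 16.04% to 17.4% of the ligand level in the controls and 8.16% to 13.2% with AMI-5. The share of Jag2 is larger with AMI-5 than in the controls, and Dll4 has the largest share in both groups.

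Around these genes, 52 of 56 other Notch pathway genes passed the filter, and 25 were lower, 6 higher and 21 not called, with a median log2 fold change of -0.21. With the GC and length trends removed, 16 were lower and 8 higher. Of all genes tested, 26.6% were lower and 27.5% higher, and 19.5% and 25.1% with the trends removed. The class counts below are to be read against these shares. The 4 that did not pass were Dlk2, Hes2, Hes3 and Hes5. Lower calls were 3 of 4 tested among the other Hes and Hey genes. Hes6, which is raised in endocrine progenitors, had a log2 fold change of -0.84 ± 0.076 (SE, edgeR adjusted p = 2.17e-06), and its mean went from 76.0 ± 4.61 to 42.4 ± 3.88 CPM. Hey1 and Hey2, targets known from endothelium, had log2 fold changes of -0.51 and -0.62 (edgeR adjusted p = 0.00324 and 0.0138). With the trends removed Hes6 was at -0.38 and still called, and the call of Hey2 ended without AMI-5 replicate 3 (edgeR adjusted p = 0.065).

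Of the 3 other ligands tested, 2 were lower. Dlk1, a non-canonical Delta-like protein, was at 2307, 2160 and 2543 CPM in control and at 1546, 1626 and 1400 CPM with AMI-5, a log2 fold change of -0.62 ± 0.076 (SE, edgeR adjusted p = 3.06e-05). Its lowest control library lay well above its highest AMI-5 library. Dll3, a ligand that acts within its own cell, was low, at 1.36 ± 0.376 and 0.758 ± 0.115 CPM (log2 fold change -0.83, edgeR adjusted p = 0.0327). Its call held in 6 of 18 alternatives, and ended without control replicate 1 or 2 or AMI-5 replicate 1 or 2 (edgeR adjusted p = 0.16, 0.0529, 0.0903 and 0.101) and with the trends removed (-0.40, 0.298).

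Ligands need endocytosis in the sending cell, and 3 of 4 ubiquitin ligases for it were lower: Neurl1b (-0.52 ± 0.093), Neurl1a (-0.26 ± 0.093) and Mib2 (-0.20 ± 0.058, log2 fold changes with SE). Mib1, the main such ligase in mammals, was not called, with 194.0, 214.4 and 189.1 CPM in control and 187.8, 211.8 and 211.2 CPM with AMI-5. With the trends removed, Neurl1a and Mib2 turned direction, to 0.29 and 0.24, and Neurl1b was at -0.27. The call of Mib2 also ended without AMI-5 replicate 2 or 3 (edgeR adjusted p = 0.0529 and 0.0712), and that of Neurl1a without control replicate 3 or AMI-5 replicate 1 or 2 (0.139, 0.117 and 0.134). Of the sugar transferases that modify the receptors, Rfng (-0.56 ± 0.076) and Pofut1 (-0.21 ± 0.054) were lower, and Lfng was higher (0.40 ± 0.14, SE, edgeR adjusted p = 0.0479). With the trends removed Pofut1 was not called (-0.062, edgeR adjusted p = 0.386), Rfng was at -0.20 and Lfng at 0.74. The call of Lfng ended without control replicate 1 (edgeR adjusted p = 0.0728) or when AMI-5 replicates 1 (0.138) or 3 (0.107) were left out, and leaving out control replicate 3 gave 0.26.

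Among 10 genes of receptor cleavage, 3 were higher and 2 lower. The gamma-secretase subunit Ncstn (-0.35 ± 0.056) and the protease Furin (-0.31 ± 0.060), which cuts the receptor on its way to the surface, were lower. After trend removal Ncstn was still called (-0.23, edgeR adjusted p = 0.0053) and Furin was not (-0.028, 0.731). The gamma-secretase subunit Aph1c had a log2 fold change of 1.39 ± 0.17 (SE), and 18.4% of its 50-base words are shared with other genes, which leaves its value uncertain to that extent. The other higher genes, named after their values were seen, were the gamma-secretase subunit Aph1b (0.30) and the protease Adam17 (0.25). The trend on GC and length came to 0.13 at Aph1b and 0.053 at Adam17, and 18.4% of the 50-base words of Aph1b are shared. Adam10, the protease that makes the ligand-dependent cut, was not called, at 293.2, 290.2 and 285.2 CPM in control and 285.3, 290.8 and 292.4 CPM with AMI-5.

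In the nuclear complex, 1 of 7 genes was higher and 1 lower. Rbpj, the DNA-binding partner of all 4 receptors, was at 8.91, 11.1 and 11.4 CPM in control and at 25.3, 24.5 and 25.2 CPM with AMI-5. It stood against the direction of the 8 lower genes, with a log2 fold change of 1.26 ± 0.10 (SE, edgeR adjusted p = 9.18e-07), and 10.6% of its 50-base words are shared with other genes. Crebbp, an acetyltransferase recruited as coactivator, was lower (-0.76 ± 0.090, SE). Snw1, a coactivator that binds RBPJ, was not called, at 107 ± 1.23 and 108 ± 4.92 CPM (SD), and 43.4% of its 50-base words are shared with other genes. Of the 9 corepressors, 7 were lower and none higher. Tle2 (-0.98 ± 0.11), Tle3 (-0.68 ± 0.055) and Ctbp1 (-0.31 ± 0.061) were among them. After trend removal Tle2 (-0.60) and Tle3 (-0.48) were still called and Ctbp1 was not (-0.049, edgeR adjusted p = 0.545).

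Among 10 inhibitors and turnover factors, 5 were lower and 1 higher. Dtx3 (-0.67 ± 0.082), Dtx2 (-0.42 ± 0.079) and Numbl (-0.35 ± 0.063, log2 fold changes with SE) were lower. With the trends removed Dtx3 (-0.33) and Dtx2 (-0.22) were still called and Numbl was not (-0.12, edgeR adjusted p = 0.158). Named after their values were seen, Dtx1 was also lower (-0.40) and the ubiquitin ligase Itch was higher (0.25). The genome-wide trend on GC and length came to -0.51 at Dtx1, larger than its difference, and to 0.15 at Itch. Nedd4, a ubiquitin ligase and the gene of this class with the highest level per length, was not called, at 1542 ± 12.3 and 1601 ± 56.6 CPM (SD). Nrarp, a feedback inhibitor that Notch itself induces, had a log2 fold change of -0.81 ± 0.17 (SE, edgeR adjusted p = 0.00373), but 77.3% of its 50-base words are shared with other genes and its value is uncertain; it was named after its value was seen.

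The Notch genes are made by different cells of the organ, and each of them but Jag2 was set beside the summed level of a list of marker genes. Over all genes tested, 26.6% were called lower and 27.5% higher, the shares to read the counts of each list against. Endothelial markers such as Cdh5 and Pecam1 summed to 651 to 785 CPM in control and to 545, 734 and 532 CPM in AMI-5 replicates 1 to 3, with 5 of 14 lower and none higher. Dll4 and Notch4 were likewise highest in AMI-5 replicate 2. Dll4 per 100 CPM of endothelial markers was 10.9 ± 0.504 in control and 10.4 ± 0.446 with AMI-5 (SD), with overlap. Notch4 per 100 CPM of the same markers was 10.3 ± 0.518 and 8.74 ± 0.219, without overlap. Notch1 was 26.7 ± 3.63 and 21.8 ± 3.57 on this scale, with overlap.

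Smooth muscle and pericyte markers such as Pdgfrb and Mcam summed to 792 to 913 CPM in control and 720 to 829 CPM with AMI-5, with 5 of 11 lower and 1 higher. Against them, Heyl went from 10.1 ± 0.255 to 6.11 ± 0.276 per 100 CPM and Notch3 from 13.1 ± 1.18 to 9.46 ± 1.49 (SD), both without overlap. Endocrine progenitor markers such as Nkx2-2 and Cbfa2t3 summed to 333 to 365 CPM in control and 269 to 287 CPM with AMI-5, with 6 of 10 lower and none higher.

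The lower genes of this list included early endocrine factors. Neurog3, the factor that starts the endocrine programme, was at 36.7, 32.9 and 26.4 CPM in control and at 8.57, 13.5 and 10.3 CPM with AMI-5, 33.7% of control (log2 fold change -1.57 ± 0.18, SE, edgeR adjusted p = 0.000121). Pax4 (-1.48), Fev (-1.10), Neurod2 (-1.67) and Insm1 (-0.75) were also lower, while Neurod1, Isl1, Rfx6 and Cbfa2t3 were not called. These genes were named after their values were seen. The genome-wide trend on GC and length came to -0.26 at Neurog3, -0.14 at Pax4, -0.55 at Fev, -0.33 at Neurod2 and -0.48 at Insm1. Neurod2 had only 11 to 32 reads per library, and 13.3% of the 50-base words of Neurog3 are shared with other genes. Dll1 per 100 CPM of the whole list was 10.2 ± 0.477 in control and 6.38 ± 1.02 with AMI-5, without overlap. Dll1 per 100 CPM of Neurog3 alone, a measure chosen after seeing the data, was 115 ± 18.9 in control and 172 ± 53.4 with AMI-5, with overlap, so the 2 ratios differ in direction.

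Duct and trunk markers such as Spp1 and Cdh1 summed to 4422 to 4761 CPM in control and 4248 to 4680 CPM with AMI-5, with 7 of 13 lower and 2 higher. Hes1 per 100 CPM of them was 1.61 ± 0.0794 in control and 1.33 ± 0.106 with AMI-5, without overlap, and Jag1 per 100 CPM was 1.70 ± 0.144 and 1.41 ± 0.138, with overlap. Mesenchyme markers such as Col3a1 and Col1a1 had summed levels that overlapped between the groups, with 4 of 11 higher and 5 lower. Notch2 per 100 CPM of them was 1.51 ± 0.0774 in control and 1.10 ± 0.137 with AMI-5, without overlap.

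**Figure D4:**
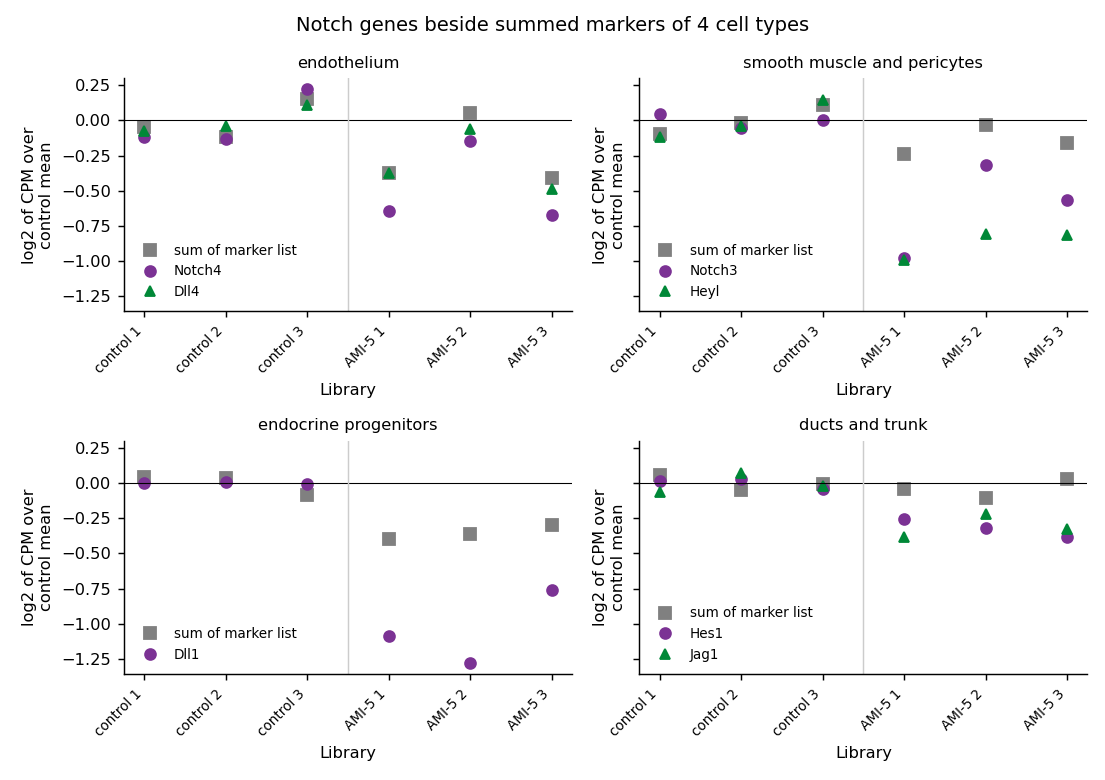
Log2 of each library's CPM over the control mean for Notch genes (circles and triangles) and for the summed marker list of a cell type (grey squares), in 3 control and 3 AMI-5 libraries. Dll4 stays near the endothelial sum in all 6 libraries. The other plotted genes, Notch4, Notch3, Heyl, Dll1, Hes1 and Jag1, lie below their lists in every AMI-5 library. The ratio of Jag1 to its list overlapped between the groups.

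The summed markers of some other cell types also differed between the groups. Calls over all genes tested were 26.6% lower and 27.5% higher. Acinar markers summed to 38943 to 52611 CPM in control and 77783 to 98852 CPM with AMI-5, with 5 of 10 higher and 1 lower. Erythroid markers such as Hba-a1 and Hbb-bs summed to 13.6 to 33.2 CPM in control and to 80.0 to 237 CPM with AMI-5, highest in AMI-5 replicate 2, with 5 of 7 tested higher and 1 lower, the embryonic globin Hbb-y (named after its value was seen). Leukocyte markers such as C1qa and Csf1r summed to 231 to 248 CPM in control and to 286 to 321 CPM with AMI-5, with 4 of 7 higher and none lower. Of 8 neural and glial markers 3 were lower and 2 higher, and of 6 mesothelial markers none was lower and 1 higher. No marker of any of the 10 lists was at 0 in all libraries. The part of these lists in the values of the Notch genes was not tested.

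For each Notch gene, the gene with the most similar profile was taken as the one with the smallest root mean square difference of log2 levels, each centred on its mean over the 6 libraries, among 11724 protein-coding genes with a mean of at least 5 CPM. Notch4 was nearest to the endothelial cadherin Cdh5 (0.040), and Dll4 to Tspan18, a tetraspanin (0.037). Cdh5 was at 181.7, 173.2 and 219.6 CPM in control and at 125.3, 181.6 and 127.1 CPM with AMI-5, high in the same libraries as Notch4. Notch2 was nearest to the proliferation marker Mki67 (0.040), Notch1 to the lysine methyltransferase Kmt2b (0.048), and Notch3 to Ampd3 (0.078). Dll1 was nearest to Tpbg (0.092), a larger distance than for any other of the 10 genes. Jag1 was nearest to Leng1 (0.023), Jag2 to Ctif (0.019), Hes1 to Itpripl1 (0.020) and Heyl to the DNA methyltransferase Dnmt1 (0.031). All 6 libraries share the same 2 groups, so a small distance describes these libraries. A link between a Notch gene and its nearest gene was not tested.

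**Figure D5:**
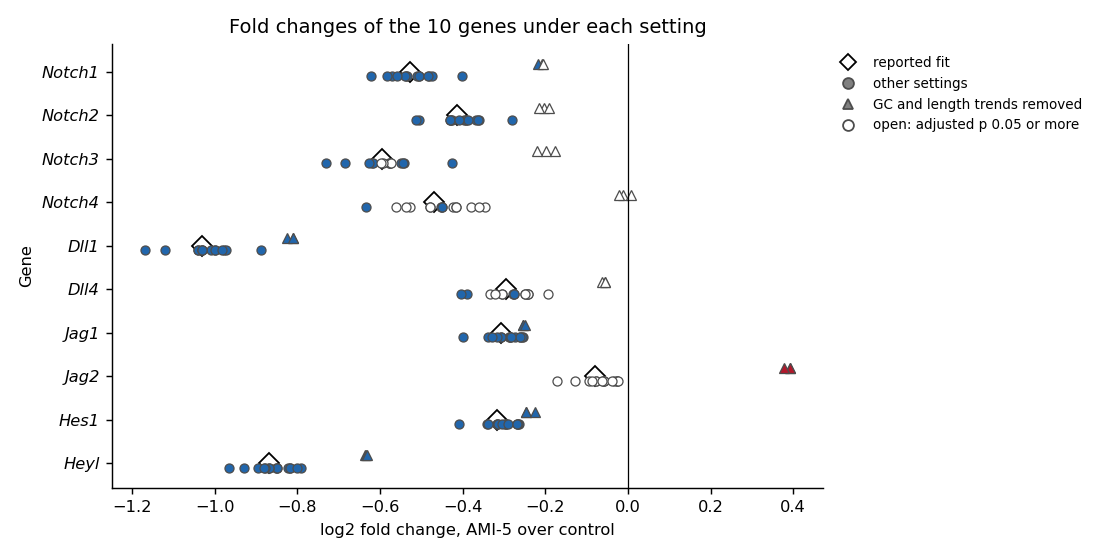
Log2 fold change of AMI-5 over control for each of the 10 genes as reported (diamonds) and under the other settings (circles, and triangles where the GC and length trends were removed), filled where the adjusted p was under 0.05. Dll1, Jag1, Hes1 and Heyl stay below 0 and filled under every setting shown, and Jag2 lies above 0 only where the trends were removed. Dll1 and Notch1 have no point for unique-sequence genes only.

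Across the alternative settings, Dll1 was called lower in 17 of 17, with log2 fold changes from -1.17 to -0.81. The fit of unique-sequence genes only gives no value for Dll1 or Notch1. Jag1 was called lower in 18 of 18 (-0.40 to -0.25), Hes1 in 18 of 18 (-0.41 to -0.23) and Heyl in 18 of 18 (-0.96 to -0.63). Notch1 was called lower in 15 of 17, Notch2 in 15 of 18, Notch3 in 12 of 18, Dll4 in 6 of 18 and Notch4 in 4 of 18. Jag2 was called in 3 of 18, each time higher.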

How the data were processed

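Total RNA of 3 control and 3 AMI-5 libraries of embryonic pancreas was measured by RNA-seq. The authors deposited raw read counts per gene, not normalized, and a gene length in bases of merged exons. The submitters' processing notes name GSNAP 2018-05-30, featureCounts 1.6.2, bcl2fastq 2.19.1 and build mm10. Per the file headers, the annotation was Ensembl release 87. The strand setting of the counting is not given in the sources used here, so reads of a gene and its antisense partner cannot be told apart.

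The 92 spike-in entries held 1 read in all and were left out. Symbols and positions came from GENCODE M21 (99.8% of shared identifiers at an overlapping position) and promoters from RefSeq on GRCm38.p6. Testing used edgeR 4.0.16 under R 4.3.3 (TMM, filterByExpr, robust quasi-likelihood test, two-sided, group as the only term), and p was Benjamini-Hochberg adjusted over 17519 genes with a threshold of 0.05. Alternatives were scaling by RLE, upper quartile or library totals alone, no filter, DESeq2 1.42.0, limma voom (limma 3.58.1), a replicate block, loess trends on GC and length removed, protein-coding or unique-sequence genes only (under 5% of 50-base words shared) and leaving out each library. The edgeR fit as reported and the fit with the trends removed were run on simulated counts first, and the other alternatives were not. Replicates were distinct beyond sampling noise in each of 6 pairs (chi-square over its degrees of freedom 6.71 to 16.1), and each was counted as 1 sample.

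The 10 genes, the pathway and marker lists and the tests were chosen with earlier results of these data known. Every one of the 10 genes is named. Of each pathway class, up to 3 called genes with the smallest p and the gene with the highest level per length are named, of each marker list the 2 with the highest CPM, and for each of the 10 genes the protein-coding gene nearest in profile, predicted genes left out. Nrarp, Dtx1, Itch, Aph1b, Adam17, Hbb-y and the early endocrine genes set beside Dll1 lie outside this rule. A gene that the rule takes is not reported here.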

Additional observations from a re-analysis of the deposited data

How the results depend on the processing

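The direction and call of Dll1, Jag1, Hes1 and Heyl held under every alternative that gave them a value. Among the 10 genes, 4 were called lower with the GC and length trends removed, 5 with the trends removed and a replicate block, 5 with unique-sequence genes only (Notch1 and Dll1 are not in that set) and 4 with protein-coding genes only and the trends removed, a setting chosen after seeing the data. In each of the 3 settings with trends removed, 1 gene was called higher, Jag2, whose log2 fold change reversed to 0.392, 0.393 with the block and 0.378 with protein-coding genes only. In the same order Mib2 reversed to 0.244, 0.245 and 0.236 and Neurl1a to 0.286, 0.287 and 0.266, and Notch4 reversed to 0.0074 in the last. Of the other pathway genes, 16, 13 and 15 were called lower in these settings, and 3 were called higher with library totals alone. The cause was not tested.

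Over all genes, 2733 were called lower and 2495 higher with unique-sequence genes only, and 2703 and 2696 with protein-coding genes only and trends removed. Both fits held fewer genes (10915 and 14571). Higher genes made up 50.9% of calls as reported, 40.2% with library totals alone (3962 higher, 5883 lower) and 57.5% with no filter, which moved the median of all genes to 0.145. Leaving out 1 library in turn gave 6 to 9 of the 10 genes called lower.

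Same-numbered samples did not vary together (correlations -0.058, -0.048 and -0.038). The labels do not say that the numbers pair samples, and so few libraries cannot decide it. With a replicate block alone, 7 of the 10 genes were called lower, Dll4 being lost (edgeR adjusted p = 0.0582), and 4482 genes were called lower and 4704 higher. A replicate block alone also ended the calls of Dll3 and Lfng (edgeR adjusted p = 0.0698 and 0.141). Library depth limits genes with few reads such as Dll3.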
